A study of Homo sapiens with 6 samples.

Results

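The 9 genes described here encode very large proteins that tie parts of the cytoskeleton to each other or to the plasma membrane: AHNAK, AHNAK2, PLEC, DST, MACF1, EPPK1, SPTAN1, SPTBN1 and FLNA. They were picked by name from the 18249 genes of the expression table, and 47 of the 15940 regions in the list of m6A peaks carry their symbols. The choice was made on measured values: AHNAK2 and PLEC were selected on their number of peaks, so peak counts are given as a description and support nothing. The study used TE-10, a human esophageal squamous carcinoma cell line. RNA-seq was made from 1 control library, labelled as having normal METTL3, and from 2 libraries of cells with stable shRNA knockdown of METTL3, called knockdown 1 and knockdown 2 after the hairpin number in their titles. m6A peaks came from TE-10 cells with normal METTL3, with 1 input library and 2 immunoprecipitated libraries whose m6A antibodies have different catalogue numbers. The labels do not say whether libraries came from separate cultures or whether the hairpin lines are single clones, so p-values measure only the spread between these libraries, which may be technical.

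METTL3 is the catalytic subunit of the complex that places N6-methyladenosine (m6A) on mRNA. The mark is known to be frequent in long internal exons and near stop codons, and it can change how long an mRNA lasts. Some giant linker proteins, AHNAK among them, have mRNAs with some of the longest exons in the genome. In a squamous cell giant linkers hold keratin filaments, actin and microtubules to one another, to the membrane skeleton and to the hemidesmosome. The hemidesmosome is the plaque that fixes basal cells to the basement membrane.

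METTL3 was lower in both knockdown libraries, and knockdown 2 stood apart from the other RNA-seq libraries. METTL3 was at 20.81 (control), 8.35 (knockdown 1) and 4.99 (knockdown 2). The cell cycle inhibitor CDKN2A was at 0.04, 0 and 144.68, and VIM, a mesenchymal intermediate filament, at 87.02, 88.05 and 311.17. All 9 squamous basal markers on the list used were present, and summed to 2676.96, 2698.91 and 1642.64. The 4 leukocyte markers were each under 1 in every library. Of the 6 mesenchymal markers 4 were under 1 in every library, and the list summed to 90.61, 91.79 and 315.82, almost all of it VIM, with COL1A1 at 3.34, 3.6 and 3.59. The 6 kidney and HeLa-type markers summed to 10.56, 11.17 and 166.17, and CDKN2A, which is on that list, makes up 144.68 of the last sum. Of the others, HOXD13 was at 6.38, 7.64 and 16.07 and PAX8 at 4.11, 3.51 and 3.66. PAX2 (0.01, 0 and 0.78), WT1 (0.02, 0.02 and 0.69) and LHX1 (0, 0 and 0.29) were under 1 in every library, each highest in knockdown 2. The 3 simple epithelium keratins were also present: KRT19 was at 509.45, 542.28 and 586.46, KRT8 at 450.52, 449.63 and 456.63 and KRT18 at 281.8, 283.79 and 229.96. Each result below is therefore given for both knockdown libraries separately, and the part of these differences in the results was not tested. Less RNA per cell and fewer cells of a kind cannot be told apart in these bulk libraries.

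All 9 genes reached a value of 1 in some library, the minimum for a test. The values are the authors' expression values, with no unit stated, and their scaling with transcript length is unknown, so levels are compared between libraries and not between genes. Differences are on the scale of log2(value + 1), which understates the change of low genes, and are given as knockdown minus control.

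AHNAK and AHNAK2 were lower in both knockdown libraries. AHNAK, a scaffold that binds the S100A10-annexin A2 complex under the plasma membrane, was at 30 (control), 25.25 (knockdown 1) and 18.49 (knockdown 2). AHNAK2, its repeat-rich relative, was at 3.88, 2.98 and 2.04. In both genes knockdown 2 had the lowest value. Both knockdown libraries lay below the single control, as they did for 30.4% of the 12375 genes tested. The log2 differences were -0.24 and -0.67 for AHNAK and -0.29 and -0.68 for AHNAK2. In limma the mean difference was -0.45 (SE 0.281, unadjusted p = 0.157) for AHNAK and -0.49 (SE 0.333, unadjusted p = 0.194) for AHNAK2, and neither passed. AHNAK's partners ANXA2, at 1277.78, 1623.29 and 1065.89, and S100A10, at 715.76, 795.79 and 601.49, were also lowest in knockdown 2, with log2 differences of -0.26 and -0.25. Unlike AHNAK, both were above the control in knockdown 1.

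Among plakins, the family that joins intermediate filaments to other structures, DST, MACF1 and EPPK1 were lower in both knockdown libraries and PLEC in knockdown 2 alone. PLEC encodes plectin, which anchors keratins to integrin beta 4 in hemidesmosomes, and was at 11.44 (control), 12.51 (knockdown 1) and 6.34 (knockdown 2). DST, whose epithelial form is a hemidesmosome plaque protein, was at 6.28, 5.84 and 4.51. Both had their lowest value in knockdown 2, and for PLEC the control lay between the knockdown libraries. MACF1, which crosslinks actin and microtubules, was at 1.53, 0.94 and 1.13. EPPK1 encodes epiplakin, a keratin-binding protein made of plakin repeats, and was at 1.96, 1.26 and 1.14. For these 2 low genes the knockdown libraries lay close together, with a difference of knockdown 2 minus knockdown 1 of 0.13 for MACF1 and -0.08 for EPPK1, against -0.88 for PLEC. The mean log2 differences from the control were -0.32 (SE 0.391) for PLEC, -0.25 (SE 0.275) for DST, -0.32 (SE 0.424) for MACF1 and -0.43 (SE 0.395) for EPPK1. Only that of EPPK1 was larger than its standard error, and none passed. Since limma draws these standard errors partly from other genes, they need not follow the spread between a gene's own knockdown libraries. EPPK1 consists of near-identical repeats, so its reads may be hard to place and its value is uncertain, as is that of AHNAK2.

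SPTBN1 was close to the control, SPTAN1 was higher in both knockdown libraries, and FLNA had the same order of libraries as PLEC. SPTAN1 and SPTBN1, the alpha and beta chains of the spectrin network under the membrane of non-red cells, did not go the same way. SPTAN1 was at 3.11 (control), 3.47 (knockdown 1) and 3.95 (knockdown 2), the only one of the 9 genes with its lowest value in the control. SPTBN1 was at 2.74, 2.54 and 2.62. The log2 difference was 0.12 and 0.27 for SPTAN1 and -0.08 and -0.05 for SPTBN1. FLNA encodes filamin A, which crosslinks actin and binds integrin tails, and was at 61.33, 68.98 and 38.52. Its log2 difference was 0.17 in knockdown 1 and -0.66 in knockdown 2, so the control lay between the knockdown libraries.

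**Figure D1:**
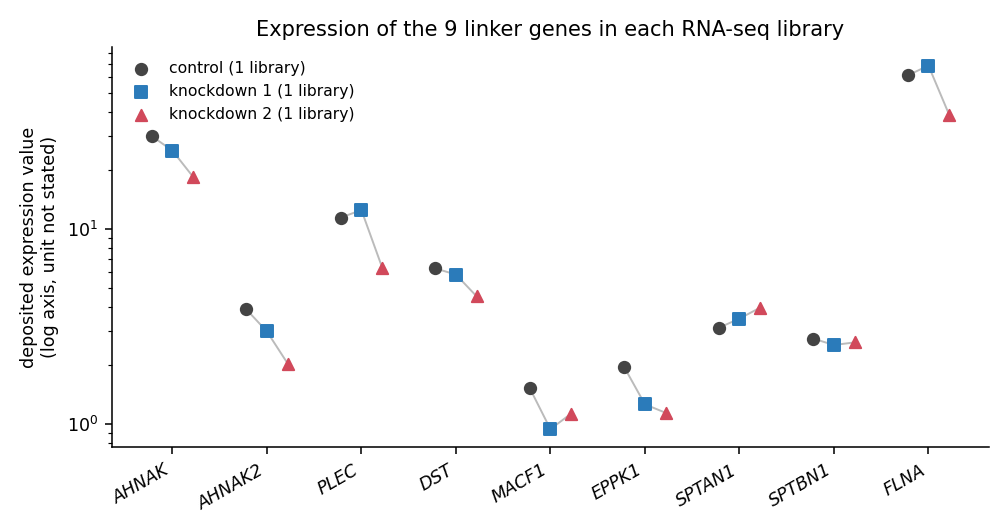
Deposited expression value (log axis, unit not stated) of each of the 9 genes in the control, knockdown 1 and knockdown 2, 1 point per library, joined by gray lines for each gene. AHNAK and AHNAK2 step down from control to knockdown 1 to knockdown 2, while PLEC and FLNA are highest in knockdown 1 and lowest in knockdown 2.

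Counted together, 6 of the 9 genes were lower in both knockdown libraries (AHNAK, AHNAK2, DST, MACF1, EPPK1 and SPTBN1), against 30.4% of the 12375 genes tested. SPTAN1 alone was higher in both, against 28% of genes, and PLEC and FLNA split. The knockdown libraries share their only control, so a high or low control value alone puts a gene on 1 side in both. In knockdown 1, 6 of 9 were lower (52.1% of all genes), and in knockdown 2, 8 of 9 (49.7%). The median log2 difference of the 9 genes was -0.09 in knockdown 1 and -0.47 in knockdown 2, beside -0.01 and 0.00 over all genes. The larger differences lay in knockdown 2. There FLNA, AHNAK, AHNAK2 and PLEC took percentiles 3.62, 3.35, 3.2 and 2.41 among all genes, where 0 is the lowest difference. In knockdown 1 the same genes took percentiles 78.3, 18.1, 13.4 and 72. EPPK1 and MACF1 were at percentiles 7.7 and 7.96 in knockdown 1, and at 8.27 and 21.7 in knockdown 2.

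None of the 9 genes passed limma's test at an adjusted p of 0.05 over all genes, where 0% of genes passed. None had an unadjusted p under 0.05, against 162 genes or 1.31% of those tested, and the adjusted p was 1 for each. None of the 9 was at least 2-fold different in knockdown 1 (0.646% of genes) or in knockdown 2 (4.61%). The single control adds nothing to the estimated spread, which has 1 residual degree of freedom. A p that misses the threshold here does not show that the values did not differ. METTL3, the target of the knockdown, did not pass the adjusted test either, at log2 differences of -1.22 and -1.86.

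**Figure D2:**
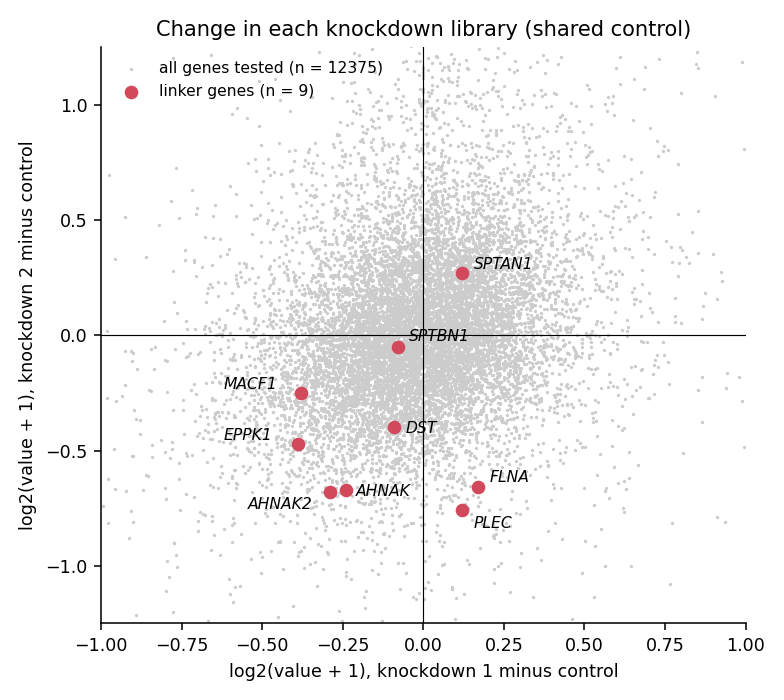
Difference from the control in knockdown 1 (x axis) and in knockdown 2 (y axis), both in log2(value + 1), for all 12375 genes tested (gray) and the 9 linker genes (red); 403 genes lie outside the axes. The libraries share 1 control, and 6 linker genes lie in the lower left, PLEC and FLNA in the lower right and SPTAN1 in the upper right.

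The structures that these proteins attach to were followed with lists of named genes, none of whose members passed limma's adjusted test. Their counts stand beside 30.4% of all genes tested that were lower in both libraries and 28% that were higher in both, and beside medians of -0.01 and 0.00. Of 9 hemidesmosome genes, PLEC and DST included, 7 (77.8%, against 30.4% of all genes) were lower in both libraries and 0 higher, the median being -0.40 for knockdown 1 and -0.90 for knockdown 2. CD151, a tetraspanin of the complex, was at 158.55, 144.24 and 134.15. ITGB4, the integrin that plectin binds, was at 116.24, 130.93 and 69.14, the same order of libraries as PLEC. COL17A1, the transmembrane collagen of the plaque, was at 84.86, 61.16 and 27.3. Named only after looking at the values, the integrin ITGA6 was at 21.71, 15.37 and 10.86. The squamous basal list, which shares ITGB4 and COL17A1, had its lowest sum in the same library, and its part in this was not tested.

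Of the 7 plakins, 4 of them described above, 6 (85.7%, against 30.4% of all genes) were lower in both libraries and 0 higher, with medians of -0.09 and -0.47. PPL, which builds the cornified envelope, was at 12.1, 11.28 and 7.43. EVPL, its partner there, was at 3.8, 3.54 and 2.31, and DSP, the desmosomal plakin, at 6.14, 5.82 and 5.87. PPL and EVPL thus had their low value in knockdown 2 as PLEC and DST did, and DSP hardly differed between libraries. Of 12 keratins and other filaments to which plakins attach, 3 (25%) were lower and 2 higher in both, with medians of 0.01 and -0.43. KRT17, the highest of them, was at 1171.05, 1177.9 and 749.17, KRT6A at 887.74, 798.22 and 462.91, and KRT5 at 633.07, 779.09 and 429.18, all lowest in knockdown 2. KRT14, the partner of KRT5 in basal cells, was at 449.63, 357.39 and 210.86.

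Among the 10 tested actin crosslinkers, FLNA included, 6 (60%, against 30.4% of all genes) were lower in both libraries and 0 higher, with medians of -0.22 and -0.59. FSCN1, which bundles actin in protrusions, was at 148.63, 114.78 and 78.14. PLS3 was at 93.02, 72.41 and 107.55 and PDLIM7 at 62.37, 70.9 and 55.76, so the highest members did not share an order. Of 12 focal adhesion genes 4 were lower and 2 higher in both; the medians were 0.08 and -0.15. ITGB1, whose tail filamin binds, was at 301.05, 176.87 and 149.23. PXN was at 131.44, 125.32 and 82.22 and FLII at 127.59, 141.06 and 83.97.

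Of 8 tested members of the spectrin superfamily 4 (50%, against 30.4% of all genes) were lower and 1, SPTAN1, higher in both libraries, with medians of -0.15 and 0.07. The actin-binding alpha-actinins ACTN1 and ACTN4 were at 150.58, 137.51 and 85.59 and at 144.46, 129.16 and 99.27, lowest in knockdown 2 as FLNA was. Of 12 partners in the membrane skeleton 2 (16.7%) were lower and 3 higher in both, with medians of -0.13 and 0.22. TPM3 was at 170.32, 208.13 and 146.04, ADD1 at 21.94, 24.49 and 26.36, and TMOD3 at 19.81, 16.28 and 10.81.

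The lists for the nuclear envelope and for microtubule ends each held genes lower in both libraries and genes higher in both. Of 6 tested nesprin and SUN genes 4 were lower and 1 higher in both; the medians were -0.21 and -0.37. LMNA was at 127.74, 127.62 and 77.49, EMD at 79.24, 113.7 and 101.58, and SUN2 at 42.43, 28.01 and 26.83. Of 12 partners of DST and MACF1 on microtubules 4 (33.3%) were lower and 3 higher in both, with medians of -0.08 and 0.11. MAPRE1, which tracks growing ends, was at 52.4, 58.43 and 62.96, KIF5B at 29.57, 25.64 and 25.09, and MAP4 at 26.79, 25.72 and 29.05. Of 5 tested genes of the AHNAK list 3 (60%) were lower in both and 0 higher, the third being PRX, at 1.78, 1.3 and 1.23. Over all lists 6 of 98 tested genes (6.12%) had a limma unadjusted p under 0.05, against 1.31% of all genes. They were ITGB1 (0.017), LIMA1 (0.0219), KRT6B (0.0225), SVIL (0.0337), SUN2 (0.0431) and ITGA6 (0.0493), each lower in both libraries. The lists were chosen with earlier results of these data known, so nothing is read from this share. The spread behind these p-values comes from the 2 knockdown libraries alone, and limma draws it partly from other genes. Agreement of those libraries in a gene therefore enters its p-value only in part.

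Of the 9 genes 8 had at least 1 m6A peak, against 52.4% of the genes tested, and 4 had at least 5, against 1.98%. The number of peaks helped choose the genes, and nothing is read from these shares. AHNAK2 had 13 peaks, AHNAK 12, PLEC 10, EPPK1 5, DST 3, FLNA 2, MACF1 and SPTAN1 1 each, and SPTBN1 none. Of the 8906 symbols in the peak list 2 had more peaks than AHNAK2, 3 more than AHNAK and 8 more than PLEC, with 8 symbols at 10 peaks. The list has no score, so strength cannot be ranked. The build named for the study is hg38, but for 7 of the 8 linkers with peaks every peak lay outside the interval of the gene in RefSeq on GRCh38.p14. Positions are therefore quoted from the file without a build.

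The AHNAK2 peaks lay almost entirely in the exon class, which the list writes as Exon/CD and which is read here as coding exon. Of 13 peaks 12 had this class and 1 was classed as 3' UTR. They stretched from position 105404078 to 105421235 on chromosome 14, a span of 17157 bases of which they covered 37.6%. Centres of neighbouring peaks were 373.5 to 4321 bases apart, with a median of 1007.5. The widest peak, of 1377 bases, was the one nearest the start of the transcript.

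AHNAK had a similar row of peaks under another location class. All of its peaks were assigned to 1 transcript, 11 classed as intron and 1 as upstream of the start, and none as exon. Of the 2556 genes with an intron-class peak, 3 had 11 or more, AHNAK among them, and the median gene had 1. Of the 12 peaks, 10 lay from position 62284902 to 62301532 on chromosome 11, between 13046 and 29322 bases after the annotated start, and the remaining pair had centres within 500 bases of that start. The coding sequence of AHNAK is known to sit almost wholly in a single giant exon, and the peak list assigned the gene to a transcript for which these positions are intronic. No annotation of that build was used here, so which of these peaks are exonic was not tested.

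PLEC and EPPK1, neighbours on chromosome 8, both had nearly all their peaks in the exon class. PLEC had 9 exon-class peaks and 1 in the 3' UTR, within 8436 bases from position 144990065 to 144998501, and the peaks covered 49% of that span. The centre of the peak nearest the start lay 52512 bases after the start of the transcript named in the list. EPPK1 had 5 exon-class peaks from position 144940200 to 144947539, covering 78.4% of 7339 bases. Its peaks of 2632 and 2035 bases were the 3rd and 26th widest of all 15940, where the median was 315 bases. Reads from the repeats of EPPK1 may be placed on more than 1 copy, and their treatment is not stated. Between the EPPK1 and PLEC peaks lay 42526 bases with no peak of any other symbol.

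**Figure D3:**
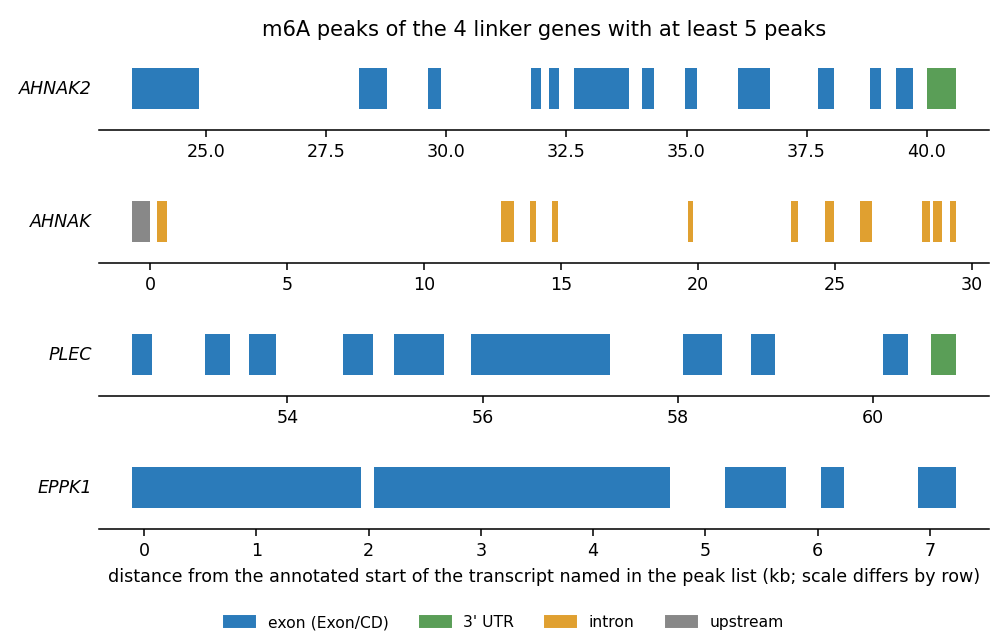
Each m6A peak of AHNAK2, AHNAK, PLEC and EPPK1 as a box over its extent, with the distance from the annotated start of its transcript in kb on the x axis (a separate scale for each gene) and the location class as color. Peaks fill 78.4% of the span in EPPK1 and 37.6% in AHNAK2, and those of AHNAK carry the intron and upstream classes only.

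The other linkers had few peaks. FLNA had 2 exon-class peaks of 222 and 263 bases, 14323 and 3462 bases after the annotated start. DST had 3 intron-class peaks, 2 of them 1058 bases apart and the third 205888 bases away. MACF1 had 1 intron-class peak of 199 bases, a width at the minimum of the list. Over the 8 genes with peaks, 59.6% of the 47 peaks were classed as exon and 31.9% as intron, against 34.1% and 23.5% of all peaks. Peaks of a gene share their source and are not replicates, so these shares are a description. AHNAK alone gave 11 of the 15 intron-class peaks. AHNAK2 and PLEC, both chosen on their number of peaks, gave 12 and 9 of the 28 exon-class peaks. Of the linkers' peaks 5 (10.6%) were wider than 1000 bases, all of them in AHNAK2, PLEC and EPPK1, against 3.74% of all peaks.

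SPTAN1 and AHNAK were the members with a peak centre within 500 bases of the annotated start. The SPTAN1 peak, classed as 5' UTR, ran from 64 bases before to 301 bases after it. AHNAK had 1 peak from 641 to 11 bases before the start and another from 261 to 629 bases after it. The EPPK1 peak of 2035 bases also spans its annotated start, from -105 to 1930 bases relative to it. The sequence around the RefSeq start is shown for SPTAN1, whose peak covers the list's annotated start, and for AHNAK, whose peaks lie on either side of it without covering it. It comes from RefSeq on GRCh38.p14, and the RefSeq start was not matched to that in the peak list. Lower case marks the 120 bases before the start and capitals the first 30 transcribed bases. The stretches are chr9:128552467-128552616 on the plus strand and chr11:62545797-62545946 on the minus strand.
SPTAN1: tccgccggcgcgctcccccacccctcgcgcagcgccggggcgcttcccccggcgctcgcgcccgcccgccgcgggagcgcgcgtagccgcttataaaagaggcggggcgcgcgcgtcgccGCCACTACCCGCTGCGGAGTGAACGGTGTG
AHNAK: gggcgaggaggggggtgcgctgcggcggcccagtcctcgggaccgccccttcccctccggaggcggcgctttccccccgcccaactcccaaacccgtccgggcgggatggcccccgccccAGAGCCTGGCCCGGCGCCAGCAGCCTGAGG
Both starts are rich in G and C, with 78% and 70% over the table's 300-base window, against a median of 58.7% over 35116 windows. The letters GGGCGG, searched on both strands of the 250 bases before the start, occurred 5 times for SPTAN1 and 4 times for AHNAK, and at least once in 42.6% of all windows. TATAAA occurred once for SPTAN1, beginning 29 bases before the start, and not for AHNAK, against 10.7% of all windows. GGAC, the core of the most common m6A motif, was in neither gene's first 50 transcribed bases on the strand of the gene, and in 18.9% of all windows. These are matches of letters and not sites.

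Across all genes tested, the median difference in knockdown 2 was lower in groups of genes with more peaks, and in knockdown 1 the medians differed little. The median log2 difference in knockdown 2 was 0.04 for the 5891 genes with no peak, -0.01 for 3430 genes with 1, -0.03 for 1721 genes with 2, -0.08 for 1088 genes with 3 to 4 and -0.14 for 236 genes with 5 to 9. In knockdown 1 these medians were -0.01, -0.02, -0.01, -0.05 and -0.07. The share of genes lower in both libraries was 27.2% with no peak and 46.1% with 5 or more, and 45.6% without AHNAK, AHNAK2, PLEC and EPPK1. Genes with 10 or more peaks numbered 9, too few for a trend, with a median of -0.47 in knockdown 2, and -0.31 without AHNAK, AHNAK2 and PLEC. In knockdown 1 the median of these 9 genes was 0.03, above that of the genes with no peak, with or without the 3 linkers. The lower quartile of these 9 genes in knockdown 2 was -0.67, and -0.45 without the 3 linkers. Genes with 5 to 9 peaks had a median control value of 5.78, against 10.24 with no peak. Transcript length was not measured, and the part of level in this pattern was not tested. In knockdown 2, AHNAK2 with 13 peaks was at -0.68, AHNAK with 12 at -0.67, PLEC with 10 at -0.76 and EPPK1 with 5 at -0.47. DST with 3 was at -0.4, FLNA with 2 at -0.66, MACF1 and SPTAN1 with 1 at -0.25 and 0.27, and SPTBN1 with none at -0.05. In knockdown 1 these genes were, in the same order, at -0.29, -0.24, 0.12, -0.39, -0.09, 0.17, -0.38, 0.12 and -0.08. Whether the differences of the linkers go with their peak number was not tested.

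**Figure D4:**
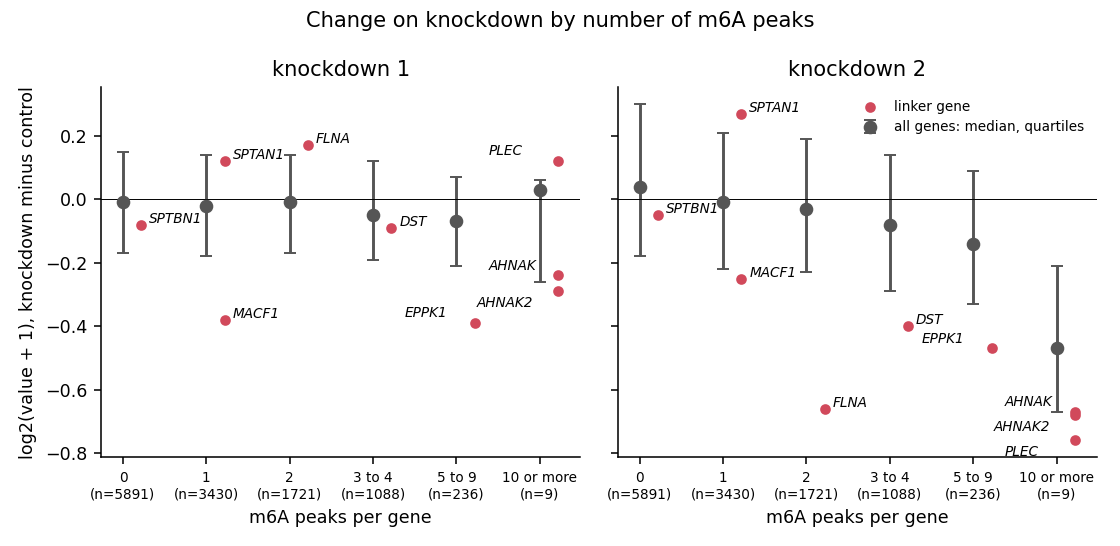
Difference from the control in log2(value + 1) in knockdown 1 (left) and knockdown 2 (right) for genes grouped by number of m6A peaks, with gray points and bars for the median and quartiles of all genes and red points for the 9 linker genes. In knockdown 2 the gray medians go from 0.04 with no peak to -0.14 with 5 to 9 peaks. There every linker except SPTAN1 lies below the median of its group. The group with 10 or more peaks includes AHNAK, AHNAK2 and PLEC themselves.

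Genes of other kinds had as many peaks. Those with 11 or more besides AHNAK2 and AHNAK were NPIPL1 with 18, the giant cadherin FAT1 with 14, LOC541471 and the synaptic scaffold SHANK2 with 12, and YY1AP1 and ZNF469 with 11. FAT1 was at 5.49 (control), 5.62 (knockdown 1) and 3.7 (knockdown 2), an order of libraries like that of PLEC. SHANK2 was at 1.46, 1.06 and 0.63, an order like that of AHNAK. YY1AP1 was at 30.09, 35.11 and 31.65. With 10 peaks were PLEC, DIDO1, DENND3, PPARA, MLL2, BC041856, LOC652276 and FLG, and FLG, the filaggrin gene, was listed at 0.05, 0.07 and 0.01. Against 52.4% of all genes tested, at least 1 peak was found in all 7 plakins, PLEC included, which was chosen on its peaks (DSP and EVPL had 5 each, PPL 4). The same held for 9 of 12 microtubule partners, 6 of 9 hemidesmosome genes, 5 of 7 genes of the AHNAK list, 7 of 12 focal adhesion genes, 3 of 8 nesprin and SUN genes and 4 of 11 actin crosslinkers. It held for 4 of 12 keratins and filaments, 4 of 13 spectrin superfamily genes and 4 of 13 partners in the membrane skeleton.

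The expression pattern nearest to the median of the 9 linkers was sought among 8208 other genes with a control value of at least 5, as the Euclidean distance between the pairs of log2 differences in both knockdown libraries. The nearest were SMAD3 (22.28, 20.8 and 15.78; distance 0.0065), RGP1, GID4, PDPK1 and TMEM45A, the last at a distance of 0.0192. This likeness rests on 3 libraries only.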

How the data were processed

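The 9 genes and the gene lists were chosen with earlier results of these data known, and no adjusted p over a list alone is given. Reads were aligned with TopHat2 and counted with HTSeq, and peaks were called with MACS2, per the submitters' processing notes, with no version or parameter named. The deposited expression table holds a signal per gene and library with 2 decimals and no stated unit; its columns sum to 608290.9 (control), 617840.4 (knockdown 1) and 627152 (knockdown 2), so it holds neither raw counts nor a complete CPM or TPM table. Depth is therefore unknown, and no counting interval is given. Whether the authors called peaks on pooled immunoprecipitations is not stated in the labels.

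Since these are not counts, the planned test for counts was replaced by limma. Values were taken as log2(value + 1), 12375 genes that reached 1 in some library were kept, and knockdown was set against control with limma 3.58.1 (R 4.3.3) with moderated variances, a mean-variance trend and Benjamini-Hochberg adjustment over all genes. The control is assumed to vary like the knockdown libraries. The procedure was also run on simulated data with the same spread in every library. Changes there were at least 2-fold and only in genes with a mean of at least 5. The run therefore does not measure power for the linkers. Named genes are the 9 linkers, METTL3, CDKN2A and VIM, the 3 highest of each list in the control, any list member at least 2-fold different in the same direction in both knockdown libraries (none was), the 5 nearest patterns and the 10 genes with most peaks, ties included; genes named by protein length were not used here, and 1 gene that the rule names is not reported here. Leukocyte and mesenchymal markers under 1 in every library are given by count only, and the kidney and HeLa-type markers are all named. DSP, EVPL, PRX and the list genes with an unadjusted p under 0.05 outside the rule (ITGA6, LIMA1, SVIL and KRT6B) were named after their levels were known. Peak symbols were matched by name, and 0 rows carried an older symbol of a linker. Promoters come from RefSeq (GRCh38.p14), and those of PLEC and EPPK1 were not used here. Alternatives were other pseudocounts, filters and scalings, no trend, leaving out a knockdown library, and other ways to count peaks. Peaks and figures were handled in Python 3.11.15 with pandas 2.3.3 and matplotlib 3.10.9.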

Additional observations from a re-analysis of the deposited data

How the results depend on the processing

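The count of 0 genes passing limma's adjusted test held under every scaling, pseudocount, filter and trend setting tried, with 123 to 444 genes at an unadjusted p under 0.05. The 6 linkers lower in both libraries stayed 6 of 9 under these settings, except with a mean of at least 5 over the libraries, which left 4 linkers, 2 of them lower in both (31.3% of all genes). The background share went from 27.2% to 34.7%. The median log2 difference of the linkers was -0.32 and ranged from -0.17 (pseudocount 5) to -0.36 (pseudocount 0.1). Without a knockdown library there is no test: the number of linkers lower than the control was 6 without knockdown 2 and 8 without knockdown 1, and the median was -0.09 and -0.47. PLEC and FLNA changed sign without knockdown 2, to 0.12 and 0.17, and were at -0.76 and -0.66 without knockdown 1. Keeping only peaks classed as exon or UTR left 31 of 47, and 0 of 12 for AHNAK, by construction. The median distance between neighbouring centres was 1022 bases, and the gap from end to next start 590. No paired analysis was possible because there is 1 control library. Unknown depth and a single control limit every comparison of expression.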
